A study of Mus musculus with 32 samples.

Results

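The complement genes described here were 9 genes of the mouse table, *C1qa*, *C1qb*, *C1qc*, *C3*, *C3ar1*, *C4b*, *C5ar1*, *Cfb* and *Cfp*, found by matching each row's Ensembl identifier, with the version removed, to these symbols. They were 9 of 54281 gene rows, and all 9 were among the 15257 genes with enough counts to be tested. They were followed in 32 RNA sequencing libraries of bone marrow-derived macrophages (BMDMs), cells grown from mouse marrow in medium holding supernatant of L929 cells. The study asked how macrophages change as they lose TREX1, a DNA exonuclease that keeps self DNA from triggering cGAS. Cells were *Trex1* FL/FL, with both alleles flanked by loxP sites, or *Trex1* WT/FL, with 1 such allele. Both genotypes carried R26 CreERT2, a Cre recombinase driven from the *Rosa26* locus that acts once 4-hydroxytamoxifen (4-OHT) is present, so that treated WT/FL controls also met active Cre and could lose their floxed allele. Cells received 2 µg/ml 4-OHT for 22 h or were left untreated, and RNA was taken 1, 2, 3 or 4 days after the end of the exposure, with 2 libraries in each of the 16 groups. The labels give no age, sex or animal for a library.

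Complement is a protein cascade of innate immunity. The classical pathway starts when C1q, built from the products of *C1qa*, *C1qb* and *C1qc*, binds immune complexes, dying cells or some microbes. The protease C1s, which works beside the protease C1r, then cleaves C4 and C2 to form an enzyme that cleaves C3. The alternative pathway works through factor B, the product of *Cfb*, and properdin, the product of *Cfp*, which holds the alternative C3 convertase together. Fragments released from C3 and C5 act on the receptors C3aR, encoded by *C3ar1*, and C5aR1, encoded by *C5ar1*. The liver makes most circulating complement, while macrophages are a main source of C1q and properdin, make C3, C4 and factor B locally, and carry both receptors.

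Reads were given as estimated counts per gene, and levels are given as CPM, the counts per 1000000 counts of a library after TMM scaling. The libraries held between 35120505 and 63760884 counts, with a median of 44841991. *Trex1* itself was at 0 counts in 6 of the 8 4-OHT-treated FL/FL libraries and at 14 and 9 counts on day 2, against 12.2 to 79.4 CPM in treated WT/FL cells and 28.6 to 144 CPM in untreated cells. On each day both treated WT/FL libraries were below both untreated WT/FL libraries. The values were 15.0 and 12.2 against 32.0 and 28.6 CPM on day 1. On day 4 they were 47.8 and 49.0 against 78.6 and 89.9 CPM. The 8 macrophage markers, of which *Itgam* also codes for a complement receptor chain, were at a summed 15100 to 49100 CPM in every library, while 8 granulocyte markers summed to 5.59 to 22.9 CPM and 6 dendritic cell markers to 0.689 to 2.67 CPM. *Mcpt8* and *Ncr1*, markers of basophils and NK cells, were at 0 in all libraries. Between treated genotypes, none of the 7 granulocyte, 4 dendritic cell and 3 stromal markers of these lists that could be tested passed on any day; *Itgax*, which dendritic cells also express, was not in the list and is described with the complement receptors. The labels do not say whether 2 libraries of a group came from separate animals or cultures, so the p-values measure the spread between these libraries, which may be technical.

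In the genome annotation used here (GRCm39), the 3 C1q genes lie side by side on the minus strand of chromosome 4, with *C1qb* at 136606009 to 136613511, *C1qc* at 136616466 to 136620376 and *C1qa* at 136623223 to 136626161. *C4b* (34947354 to 34962912), *Cfb* (35074852 to 35081559) and *C3* (57510964 to 57535155) lie on the minus strand of chromosome 17, *C3ar1* on chromosome 6 (122823393 to 122833122), *C5ar1* on chromosome 7 (15980668 to 15993465) and *Cfp* on the X chromosome (20791688 to 20797794). All 9 are protein-coding, and the counts cover their annotated transcripts.

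RefSeq promoter sequences, from 250 bases before to 50 bases after the start, were matched for 6 of the 9 genes, with coordinates of an older build, GRCm38.p6. *C1qa*, *C4b* and *Cfb* had no entry. The promoters were searched on both strands for GAAANNGAA (ISRE-like), TTCNNNGAA (GAS-like) and TTGCNNAA (C/EBP-like), which occur in 8.56%, 8.3% and 10.8% of the 32851 promoters of the table. The promoters of *C3*, the central component, and *C5ar1*, the member that was lower in treated FL/FL cells, are shown because they held the only matches, which are in capitals. Those of *C1qb* and *C1qc* are shown because the levels of these genes had the highest Pearson's correlation over the libraries of any pair of the 9. The *C3* promoter (chr17:57228087-57228386, minus strand) holds TTGCGAAA on the plus strand of the gene, from base -45 to base -38 counted from the start. The *C5ar1* promoter (chr7:16259289-16259588, minus strand) holds TTCCTTTTC, the reverse complement of the ISRE-like letters, from base -66 to base -58. No match of the 3 motifs was found in the windows of *C1qb* (chr4:136886151-136886450, minus strand), *C1qc* (chr4:136892865-136893164, minus strand), *C3ar1* or *Cfp*. A match is a description of the letters in the window.
C3: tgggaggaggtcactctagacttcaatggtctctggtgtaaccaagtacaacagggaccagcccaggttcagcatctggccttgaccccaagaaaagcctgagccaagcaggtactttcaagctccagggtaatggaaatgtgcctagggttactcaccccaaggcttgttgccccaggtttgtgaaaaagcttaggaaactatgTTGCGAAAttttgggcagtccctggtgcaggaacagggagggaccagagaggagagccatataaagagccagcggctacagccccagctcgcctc
C5ar1: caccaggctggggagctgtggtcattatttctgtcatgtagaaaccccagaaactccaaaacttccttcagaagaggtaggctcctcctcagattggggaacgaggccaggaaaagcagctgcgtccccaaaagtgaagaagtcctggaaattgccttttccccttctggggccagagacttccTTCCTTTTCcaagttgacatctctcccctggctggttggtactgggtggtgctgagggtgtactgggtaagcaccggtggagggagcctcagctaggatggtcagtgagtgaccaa
C1qb: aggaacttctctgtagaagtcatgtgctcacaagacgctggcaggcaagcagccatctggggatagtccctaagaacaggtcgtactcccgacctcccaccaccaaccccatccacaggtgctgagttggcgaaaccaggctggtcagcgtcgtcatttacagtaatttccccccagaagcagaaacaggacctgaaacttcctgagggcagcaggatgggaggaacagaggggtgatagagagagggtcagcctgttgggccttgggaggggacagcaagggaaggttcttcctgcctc
C1qc: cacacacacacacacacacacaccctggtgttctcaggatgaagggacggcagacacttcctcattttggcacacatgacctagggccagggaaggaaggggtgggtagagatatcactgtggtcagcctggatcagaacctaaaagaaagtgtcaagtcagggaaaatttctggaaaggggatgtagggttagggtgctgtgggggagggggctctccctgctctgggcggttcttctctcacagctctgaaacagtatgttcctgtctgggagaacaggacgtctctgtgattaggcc

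Among the 9 genes, *Cfb* and *C4b* differed most between the treated genotypes, *C3ar1* differed less but on days 2, 3 and 4, *C3* on days 2 and 4, *C5ar1* was lower in FL/FL cells on days 3 and 4, and *Cfp* was higher on day 4. The 3 C1q genes were higher on day 4 than on day 1 in every arm and did not pass the test between genotypes. A gene passed when the Benjamini-Hochberg adjusted p of edgeR's quasi-likelihood test, fitted on all 32 libraries and adjusted over all 15257 genes, was below 0.01. On day 1, none of the 9 passed in either direction, with log2 fold changes of -0.07 to 0.22 and adjusted p of 1 throughout. No member had an unadjusted p below 0.05 on that day, against 308 of all genes, and 0.00655% of all genes tested passed as higher and 0.0131% as lower. On day 2, 3 of 9 were higher, against 5.69% of all genes, and none was lower, against 2.48%. On day 3, 2 were higher, against 6.69%, and 1 was lower, against 5.42%. On day 4, 5 were higher, against 9.84% of all genes, and 1 was lower, against 11.7%. The median log2 fold change of the 9 was 0.38 on day 4, where the median of all genes tested was -0.04. With an added threshold of an absolute log2 fold change above 1.5, *Cfb* remained on day 2, where 0.498% of all genes passed as higher, none remained on day 3 (0.485%), and *C4b* and *Cfb* remained on day 4 (1.65%).

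**Figure D1:**
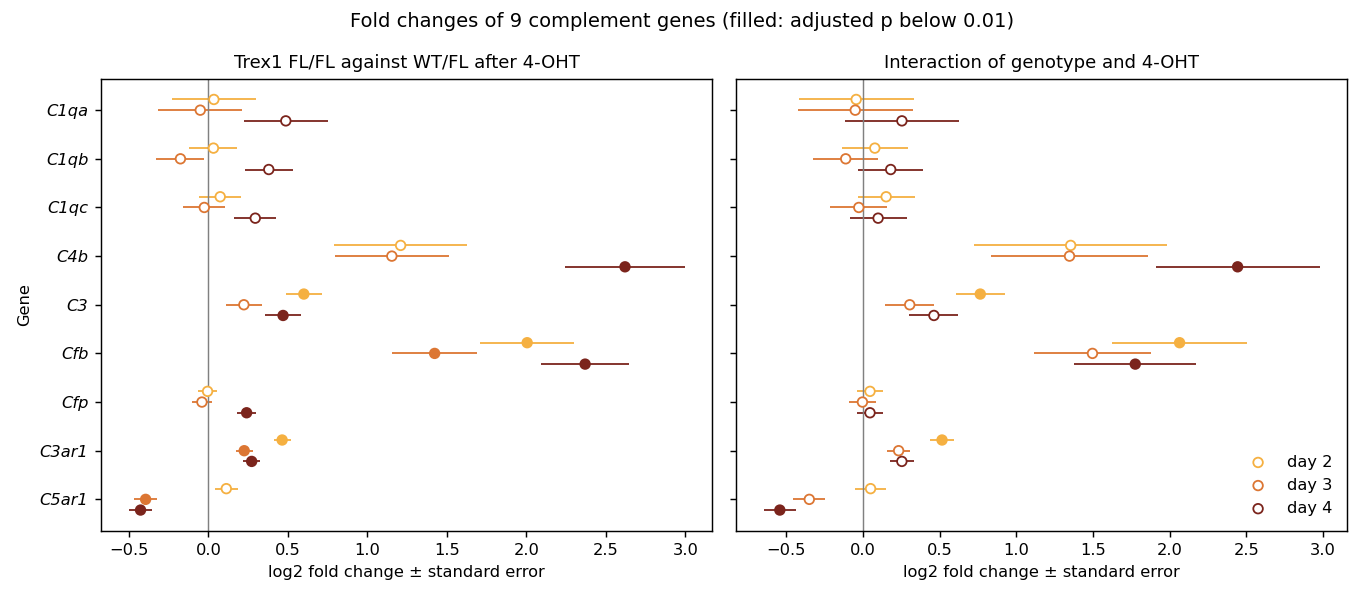
Log2 fold changes of the 9 genes with standard errors on days 2, 3 and 4, for *Trex1* FL/FL against WT/FL cells after 4-OHT on the left and for the interaction of genotype and 4-OHT on the right; filled points passed an adjusted p below 0.01. *Cfb* and *C4b* lie farthest to the right, at 2.37 and 2.62 on day 4, and *C5ar1* is the gene with filled points left of 0.

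*Cfb* encodes factor B, the protease of the alternative C3 convertase. On day 1 it was near 1 to 2 CPM everywhere, with 1.54 and 2.12 CPM in treated FL/FL cells, 1.85 and 1.61 CPM in treated WT/FL cells, 1.67 and 0.681 CPM in untreated FL/FL cells and 1.34 and 1.36 CPM in untreated WT/FL cells. Untreated WT/FL cells lay below both treated arms on that day, and the other pairs of arms overlapped. On day 2 it stood at 34.3 and 35.4 CPM in treated FL/FL cells, and at 10.1 and 7.30 CPM in treated WT/FL cells, while untreated cells had 7.78 and 6.72 CPM (FL/FL) and 7.08 and 8.06 CPM (WT/FL). Both treated FL/FL libraries were above the other 6 libraries of the day. On day 3 the values were 144 and 175 CPM in treated FL/FL cells, 44.8 and 74.3 CPM in treated WT/FL cells, 35.4 and 34.6 CPM in untreated FL/FL cells and 32.0 and 41.7 CPM in untreated WT/FL cells. On day 4 they were 133 and 149 CPM, 21.8 and 33.0 CPM, 17.4 and 25.0 CPM, and 11.4 and 16.7 CPM in the same order. The treated FL/FL libraries stayed on top on both days, and the mean of each of the 4 arms was lower on day 4 than on day 3.

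*Cfb* was 4.01-fold higher in treated FL/FL than in treated WT/FL cells on day 2 (log2 fold change 2.00 ± 0.30 SE, adjusted p = 0.000123), 2.68-fold on day 3 (1.42 ± 0.27, adjusted p = 0.000942) and 5.17-fold on day 4 (2.37 ± 0.28, adjusted p = 3.57e-06), each by edgeR's quasi-likelihood test. The call on day 3 was lost when FL/FL library 2 (adjusted p = 0.0139) or WT/FL library 1 (adjusted p = 0.0284) was left out. In fits on the 4 treated libraries of the day alone, adjusted p was 0.155 on day 3 and 0.021 on day 4, with log2 fold changes of 1.43 and 2.40. Of the 31-base words of *Cfb* transcripts, 60.5% are shared with *Gm20547*, which held 0 to 21 counts and was above 0 in 3 libraries.

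*C4b* encodes complement C4, which C1s cleaves to build the classical C3 convertase. It was close to absent on day 1, with 5 to 12 counts per library and 0.102 to 0.292 CPM. On day 2 it was at 6.36 and 5.44 CPM in treated FL/FL cells, 3.94 and 1.26 CPM in treated WT/FL cells, 2.20 and 1.46 CPM in untreated FL/FL cells and 2.58 and 1.39 CPM in untreated WT/FL cells. The 2 treated WT/FL libraries of that day lay further apart than those of any other arm. On day 3 it was at 41.4 and 37.0 CPM, 20.6 and 14.6 CPM, 11.9 and 9.40 CPM, and 13.7 and 10.6 CPM in the same order of arms. On day 4 it was at 62.2 and 55.0 CPM in treated FL/FL cells, 10.8 and 8.19 CPM in treated WT/FL cells, 6.30 and 6.27 CPM in untreated FL/FL cells and 7.44 and 3.46 CPM in untreated WT/FL cells. The mean of treated FL/FL cells was higher on day 4 than on day 3 and those of the other 3 arms were lower, although none of these 4 steps passed the test.

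The genotype difference of *C4b* after 4-OHT was 6.15-fold on day 4 (log2 fold change 2.62 ± 0.37 SE, adjusted p = 3e-05, edgeR quasi-likelihood test) and held when any of the 4 libraries was left out. Its log2 fold changes of 1.21 ± 0.42 on day 2 (adjusted p = 0.073) and 1.15 ± 0.36 on day 3 (adjusted p = 0.0302) did not pass. Without WT/FL library 1, the value on day 2 was 2.23 with an adjusted p of 0.00349, and in a fit on the 4 treated libraries of day 3 alone that day passed (adjusted p = 0.00947). *C4b* shares 42.0% of its 31-base words with the near-identical *C4a*, so the split of reads between them is uncertain. *C4a* held 11 to 42 counts in each library, and with both genes summed the log2 fold change on day 4 was 2.55 (adjusted p = 4.74e-05).

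*C3* encodes the component on which all pathways meet. On day 1 it was at 142 and 134 CPM in treated FL/FL cells and at 159 and 129 CPM in treated WT/FL cells, with 125 and 101 CPM in untreated FL/FL and 141 and 118 CPM in untreated WT/FL cells. On day 2 it was at 766 and 775 CPM in treated FL/FL cells, 520.5 and 496 CPM in treated WT/FL cells, 422 and 352 CPM in untreated FL/FL cells and 438 and 430.0 CPM in untreated WT/FL cells. The arms no longer overlapped between the treated genotypes on day 2, and treated WT/FL cells were above both untreated arms. On day 3 the values were 2698 and 2996 CPM, 2281 and 2597 CPM, 1834 and 1766 CPM, and 1836 and 1975 CPM in the same order. On day 4 they were 2992 and 3066 CPM, 2169 and 2206 CPM, 1768 and 1551 CPM, and 1755 and 1549 CPM.

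*C3* was 1.52-fold higher in treated FL/FL than in treated WT/FL cells on day 2 (log2 fold change 0.60 ± 0.11 SE, adjusted p = 0.000858) and 1.38-fold on day 4 (0.47 ± 0.11, adjusted p = 0.00311) by edgeR's quasi-likelihood test. On day 3 the log2 fold change of 0.22 did not pass (adjusted p = 0.2), although the 4 treated libraries did not overlap. The call on day 4 was lost without any 1 of its 4 libraries (adjusted p up to 0.0326), and that on day 2 without FL/FL library 2 (adjusted p = 0.011) or WT/FL library 2 (adjusted p = 0.0215).

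*Cfp* encodes properdin. It was at 271 to 332 CPM over the 8 libraries of day 1 and at 992 to 1127 CPM over those of day 3. On day 4 it was at 1358 and 1303 CPM in treated FL/FL cells, 1078 and 1175 CPM in treated WT/FL cells, 1235 and 1213 CPM in untreated FL/FL cells and 1027 and 1112 CPM in untreated WT/FL cells. Treated FL/FL cells were highest, followed by untreated FL/FL cells. The genotype difference after 4-OHT was 1.18-fold (log2 fold change 0.24 ± 0.06 SE, adjusted p = 0.00348, edgeR quasi-likelihood test), and in untreated cells it was 0.19 on the log2 scale (adjusted p = 0.0935). Between the 2 differences, the interaction was 0.05 on the log2 scale (adjusted p = 0.817). The call was lost without FL/FL library 1 (adjusted p = 0.0555) or WT/FL library 1 (adjusted p = 0.0974).

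*C3ar1* encodes the receptor for C3a, a fragment that recruits and activates myeloid cells. On day 1 it was at 512 and 524 CPM in treated FL/FL cells, below the 526 to 597 CPM of the other 6 libraries. On day 2 it was at 1123 and 1142 CPM in treated FL/FL cells against 842 and 800 CPM in treated WT/FL cells, 763 and 739 CPM in untreated FL/FL cells and 808 and 750.2 CPM in untreated WT/FL cells. Treated FL/FL cells had thus gone from the lowest to the highest of the 4 arms. On day 3 the values were 1406 and 1401 CPM, 1192 and 1210 CPM, 1097 and 1069 CPM, and 1078 and 1098 CPM in the same order. On day 4 they were 1394 and 1483 CPM, 1193 and 1190 CPM, 994 and 1026 CPM, and 1037 and 957 CPM. Treated FL/FL libraries remained above all others of the day.

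The genotype difference of *C3ar1* after 4-OHT was 1.38-fold on day 2 (log2 fold change 0.46 ± 0.05 SE, adjusted p = 4.83e-07), 1.17-fold on day 3 (0.23 ± 0.05, adjusted p = 0.00335) and 1.21-fold on day 4 (0.27 ± 0.05, adjusted p = 0.000271), by edgeR's quasi-likelihood test. The call on day 2 held without any 1 library. That on day 3 was lost without any 1 of the 4 libraries (adjusted p up to 0.0375), and that on day 4 without FL/FL library 2 (adjusted p = 0.0102).

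*C5ar1* encodes the main signalling receptor for C5a. In untreated WT/FL cells its level was at 429 and 456 CPM on day 1, 360 and 369 CPM on day 2, 358 and 353 CPM on day 3 and 431 and 417 CPM on day 4. In untreated FL/FL cells it was at 410.4 and 488 CPM, 390 and 371 CPM, 342 and 346 CPM, and 465 and 453 CPM on days 1 to 4. In both untreated genotypes the mean was lowest on day 3. In treated WT/FL cells it was at 417 and 455 CPM, 341 and 372 CPM, 344 and 311 CPM, and 488 and 453 CPM on days 1 to 4. In treated FL/FL cells it was at 405 and 434 CPM on day 1, 399 and 372 CPM on day 2, 234 and 264 CPM on day 3 and 341 and 359 CPM on day 4. On days 3 and 4 the treated FL/FL libraries were below the other 6 of the day.

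*C5ar1* was lower in treated FL/FL than in treated WT/FL cells on day 3, at 0.761 of their level (log2 fold change -0.40 ± 0.07 SE, adjusted p = 0.000232), and on day 4, at 0.744 of it (-0.43 ± 0.07, adjusted p = 4.06e-05), by edgeR's quasi-likelihood test. The call on day 3 was lost without FL/FL library 1 (adjusted p = 0.0177) or WT/FL library 1 (adjusted p = 0.0145). The share of counts from mitochondrial genes was 1.36% and 1.43% in treated FL/FL against 2.09% and 2.61% in treated WT/FL cells on day 3. On day 4 these shares were 1.69% and 1.98% against 2.83% and 3.23%. On day 2 they were 2.16% and 2.22% against 2.98% and 2.61%. The log2 fold change of *C5ar1* on day 2 was 0.11 and did not pass (adjusted p = 0.397, edgeR quasi-likelihood test). The part of the mitochondrial share in the result was not tested. Between treated genotypes, 2 of the 8 macrophage markers passed as higher in FL/FL cells and 4 as lower on day 3, with 1 and 3 on the day after. Their summed level ranged from 15100 to 39300 CPM in treated FL/FL and from 16400 to 48500 CPM in treated WT/FL cells. In these bulk samples, fewer cells of a type and less RNA per cell cannot be told apart.

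**Figure D2:**
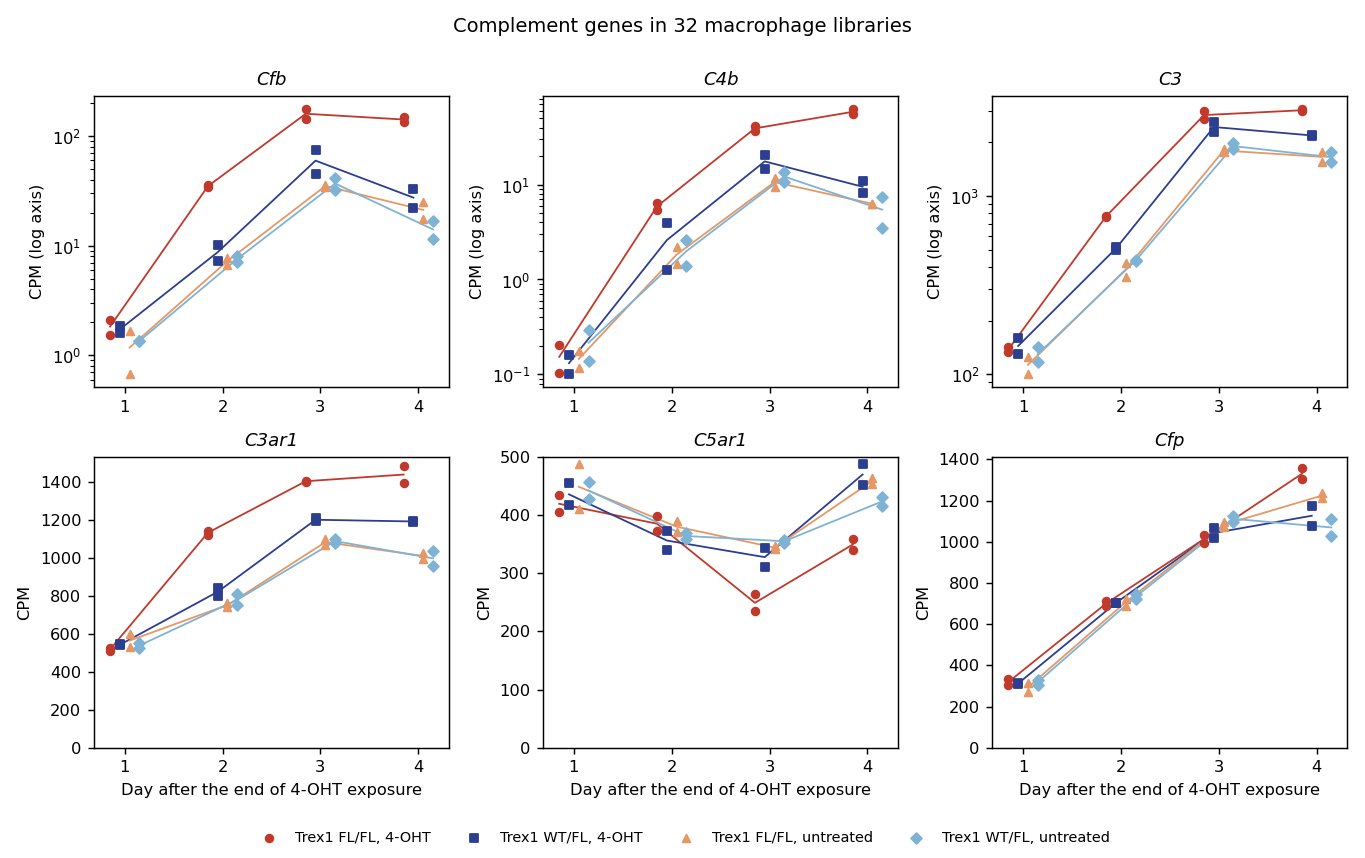
CPM of *Cfb*, *C4b* and *C3* (log axis) and of *C3ar1*, *C5ar1* and *Cfp* (linear axis) on days 1 to 4 after the end of the 4-OHT exposure; points are libraries, lines join the means of 2 libraries, and colours mark genotype and treatment. Treated FL/FL cells lie above the other arms on day 2 for *Cfb*, *C4b*, *C3* and *C3ar1*, although *C4b* did not pass the test between treated genotypes on that day. They lie below the other arms on days 3 and 4 for *C5ar1*.

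*C1qa*, *C1qb* and *C1qc* encode the 3 chains of C1q. On day 1 *C1qa* was at 94.9 to 202 CPM, *C1qb* at 330.1 to 524 CPM and *C1qc* at 227 to 349 CPM over the 8 libraries. On day 3 *C1qb* was at 2298 and 2242 CPM in treated FL/FL cells and at 2426 to 2583 CPM in the other 6 libraries. On day 4 it was at 3527 and 3187 CPM in treated FL/FL cells, 2473 and 2688 CPM in treated WT/FL cells, 2619 and 2634 CPM in untreated FL/FL cells and 2176 and 2402 CPM in untreated WT/FL cells. *C1qb* in treated FL/FL cells thus went from the lowest of the 4 arms on day 3 to the highest on day 4. On day 4 *C1qa* was at 1265 and 1282 CPM and *C1qc* at 2088 and 2068 CPM in treated FL/FL cells, above 989 CPM and 1766 CPM, the highest of the other 6 libraries for these genes.

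Although the groups did not overlap on day 4, none of the 3 passed the test there, with log2 fold changes of 0.49 ± 0.26 SE for *C1qa* (adjusted p = 0.192), 0.38 ± 0.15 for *C1qb* (adjusted p = 0.0686) and 0.29 ± 0.13 for *C1qc* (adjusted p = 0.106, edgeR quasi-likelihood test). On days 1 to 3 their log2 fold changes between treated genotypes were -0.18 to 0.12, with adjusted p of 0.491 to 1. The library numbered 2, in the order of the samples, was higher for *C1qa* and *C1qc* in 15 of 16 groups and for *C1qb* in 13 of 16, and its part in these tests was not tested. In a fit on the 4 treated libraries of day 4 alone, all 3 passed, with adjusted p of 0.000348 for *C1qa*, 0.000717 for *C1qb* and 0.00194 for *C1qc*. The share of all genes that passed in that fit was not counted. Between untreated genotypes the day 4 log2 fold changes were 0.23, 0.20 and 0.20 in the same order. The day 4 interaction of genotype and 4-OHT was 0.25, 0.18 and 0.10 (adjusted p = 0.752, 0.673 and 0.817, edgeR quasi-likelihood test). Per kilobase of transcript, *C1qc* stood at 0.785 to 0.986 of the level of *C1qb* (median 0.896) and *C1qa* at 0.546 to 0.937 of it (median 0.764) across the 32 libraries.

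**Figure D3:**
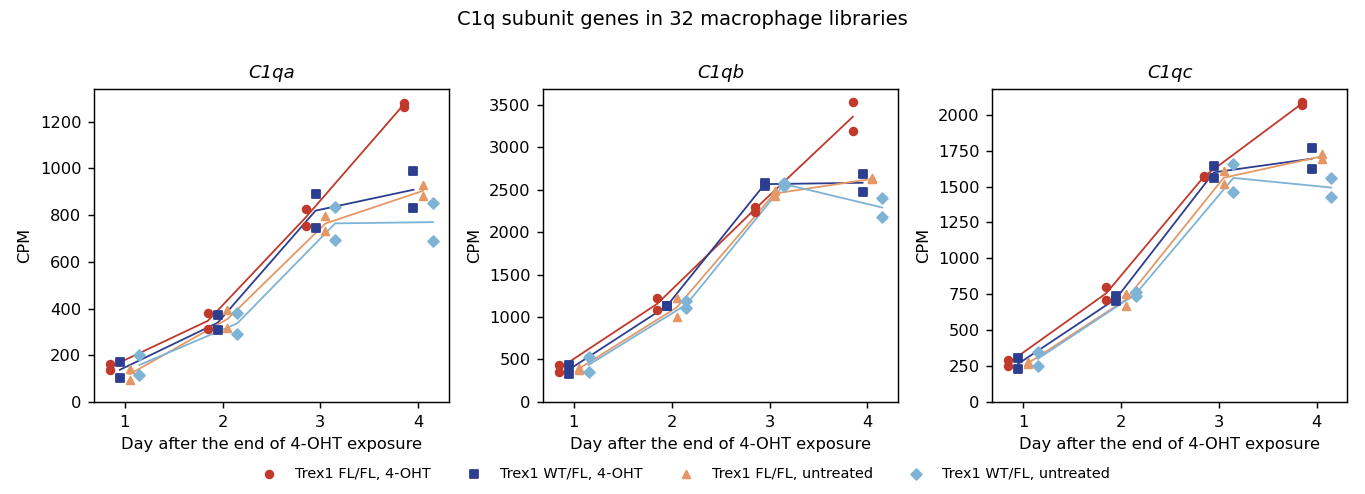
CPM of *C1qa*, *C1qb* and *C1qc* on days 1 to 4 in the 32 libraries; points are libraries and lines join the means of 2 libraries. All arms are higher on each later day up to day 3, and on day 4 the treated FL/FL libraries lie above the rest, at 1265 and 1282 CPM for *C1qa*.

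Levels of different genes can be set side by side only per transcript length. In treated FL/FL cells on day 4, *C1qb* was at 1326 ± 94.9 CPM per kb (SD, n = 2), *C1qa* at 1172 ± 11.0, *C1qc* at 1122 ± 7.64, *Cfp* at 811 ± 23.7, *C3* at 587 ± 10.2, *C3ar1* at 287 ± 12.5, *C5ar1* at 138 ± 5.11, *Cfb* at 42.2 ± 3.33 and *C4b* at 10.8 ± 0.945. C1q and properdin were thus at the upper end and the 2 genes with the widest genotype difference at the lower end. Ranked by group mean over the 16 groups, 8 of the 9 genes were highest in treated FL/FL cells on day 4 or, for *Cfb*, on day 3. *C5ar1* was lowest in treated FL/FL cells on day 3 and highest in treated WT/FL cells on day 4. Of the 15 pairs of neighbours in these orders, 6 (*C3*) to 12 (*C1qa*, *C1qc* and *C5ar1*) overlapped. Neighbours in an order of means are close by construction, and such overlaps were not counted over all genes. These orders are therefore a description.

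Whether 4-OHT changed the same genes within a genotype was asked next. In FL/FL cells none of the 9 passed on day 1, where 0.0% of all genes were higher and 0.0131% lower. On day 2, *C3* (log2 fold change 0.99), *C3ar1* (0.59) and *Cfb* (2.27) were higher with 4-OHT, 3 of 9 against 7.49% of all genes, and none was lower (3.59%). On day 3, *C3* (0.66), *C3ar1* (0.37), *C4b* (1.88) and *Cfb* (2.19) were higher, 4 of 9 against 8.12%, and *C5ar1* was lower (-0.47), 1 of 9 against 7.57%. On day 4, *C3* (0.87), *C3ar1* (0.51), *C4b* (3.22, a 9.32-fold difference) and *Cfb* (2.75, 6.72-fold) were higher, 4 of 9 against 10.2%, and *C5ar1* was lower (-0.39), 1 of 9 against 11.2%. This comparison shares the treated FL/FL libraries with the genotype comparison above. The call of *C4b* on day 3 was lost without untreated FL/FL library 2 (adjusted p = 0.0244).

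In WT/FL cells none of the 9 passed on any day by edgeR's quasi-likelihood test, with adjusted p of 0.0226 to 1. Of the 36 values, 6 had an unadjusted p below 0.05, and the share of all genes below it was not counted here. The share of all genes that passed in either direction was 0.00655%, 0.0918%, 0.341% and 0.216% on days 1 to 4. All 9 log2 fold changes were above 0 on day 4, with a median of 0.24 against 0.007 for all genes tested. Among them, *C3ar1* was at 0.26 (adjusted p = 0.0226), *C3* at 0.41 (adjusted p = 0.184), *C4b* at 0.78 (adjusted p = 0.731) and *Cfb* at 0.97 (adjusted p = 0.256). With DESeq2, 1 of the 9 passed on day 4, and the share of all genes was not counted in that fit.

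Between untreated FL/FL and untreated WT/FL cells none of the 9 passed on any day, with adjusted p of 0.0935 to 1 by edgeR's quasi-likelihood test. Among these values 1 unadjusted p was below 0.05, and the share of all genes below it was not counted here. Of all genes, 0.0%, 0.0%, 0.0% and 0.0655% passed on days 1 to 4. The log2 fold changes of the 9 ran from -0.55 to 0.59, the ends being *C4b* on day 1 and *Cfb* on day 4. On day 4 all 9 were above 0 in untreated FL/FL cells, with a median of 0.19 against 0.004 for all genes tested. On days 1 to 3, 2, 2 and 1 of the 9 were above 0.

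The interaction of genotype and 4-OHT asks whether the change with 4-OHT itself differed between the genotypes, and uses all 8 libraries of a day. None of the 9 passed on day 1 (0.00655% of all genes) or day 3 (4.65%). On day 2, 3 passed, against 4.04% of all genes, namely *C3* (0.77 ± 0.16 SE on the log2 scale, adjusted p = 0.00411), *C3ar1* (0.52 ± 0.08, adjusted p = 4.17e-05) and *Cfb* (2.06 ± 0.44, adjusted p = 0.00632) by edgeR's quasi-likelihood test. On day 4, 3 passed, against 10.4%, namely *C4b* (2.44 ± 0.54, adjusted p = 0.0035), *Cfb* (1.78 ± 0.40, adjusted p = 0.0044) and *C5ar1* (-0.54 ± 0.10, adjusted p = 0.00033). On day 3 the value of *Cfb* was 1.497 (adjusted p = 0.0198), and it passed without treated WT/FL library 2 (adjusted p = 0.00679). The calls of *C3ar1* on day 2 and *C5ar1* on day 4 held without any 1 of the 8 libraries. Those of *C3* and *Cfb* on day 2 were each lost in 7 of 8 such fits (adjusted p up to 0.0386 and 0.0437), and those of *C4b* and *Cfb* on day 4 in 5 of 8 (up to 0.0566 and 0.0333).

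The genotype difference after 4-OHT was also compared between days. From day 1 to day 2 it grew for *C3ar1* by 0.53 ± 0.08 SE on the log2 scale (adjusted p = 5.02e-05, edgeR quasi-likelihood test), 1 of 9 against 3.02% of all genes. From day 2 to day 3 it changed for *C5ar1* by -0.51 ± 0.10 (adjusted p = 0.00626), 1 of 9 against 0.905%. From day 3 to day 4 none of the 9 passed, against 3.7% of all genes. The change of *C4b* over that step was 1.47 ± 0.50 (adjusted p = 0.1) and that of *C1qb* 0.56 ± 0.21 (adjusted p = 0.152).

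Day of culture went with wider differences than genotype for 8 of the 9 genes. On day 4 against day 1, 8 of the 9 genes were higher in each arm, all but *C5ar1*, while 28.3% of all genes were higher in treated FL/FL, 27.7% in untreated FL/FL, 27.7% in treated WT/FL and 27.5% in untreated WT/FL cells. In untreated WT/FL cells the log2 fold changes were 4.68 ± 0.63 SE for *C4b*, 3.67 ± 0.13 for *C3*, 3.36 ± 0.40 for *Cfb*, 2.28 to 2.40 for the 3 C1q genes, 1.75 ± 0.06 for *Cfp* and 0.89 ± 0.05 for *C3ar1*. In treated FL/FL cells they were 8.55 ± 0.59 for *C4b*, 6.26 ± 0.37 for *Cfb*, 4.46 ± 0.13 for *C3*, 2.94 to 3.09 for the C1q genes, 2.06 ± 0.06 for *Cfp* and 1.47 ± 0.06 for *C3ar1*. *C5ar1* was lower in treated FL/FL cells (-0.26 ± 0.07, adjusted p = 0.00248, edgeR quasi-likelihood test), 1 of 9 against 27.7% of all genes. It did not pass in the other arms, where 26.7% (untreated FL/FL), 26.7% (treated WT/FL) and 26.3% (untreated WT/FL) of all genes were lower, and the difference between arms over this span was not tested.

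On day 4 against day 3, few of the 9 passed. In treated FL/FL cells *Cfp* (0.39) and *C5ar1* (0.49) were higher, 2 of 9 against 9.33% of all genes in either direction. In untreated FL/FL cells *C5ar1* was higher (0.41), 1 of 9 against 13.6%. In treated WT/FL cells *C5ar1* was higher (0.52) and *Cfb* lower (-1.12), 2 of 9 against 12.2%, and in untreated WT/FL cells *Cfb* was lower (-1.40), 1 of 9 against 12.3%. In treated FL/FL cells the same step of *Cfb* was -0.18 (adjusted p = 0.734, edgeR quasi-likelihood test).

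Of 43 other complement genes, covering early proteases, terminal components, regulators and receptors, 43 were in the table and 24 could be tested. Between treated genotypes none passed on day 1. On day 2, *C1ra* and *Calr* were higher in FL/FL cells and none was lower, and on day 3 *C1ra* and *Cd93* were higher and *Itgam* and *Itgax* lower. On day 4, 1 gene passed as higher and 6 passed as lower. Over all genes the shares higher and lower were 5.69% and 2.48% on day 2, 6.69% and 5.42% on day 3, and 9.84% and 11.7% on day 4. By group on day 4, 1 of 8 tested classical and lectin genes was higher and 1 lower, none of 2 alternative and terminal genes and none of 6 regulators passed, and 5 of 8 receptor genes were lower. The median log2 fold changes of these groups were -0.20, -0.60, 0.27 and -0.25, beside -0.04 for all genes tested. The -0.60 rests on 2 genes at low counts, the higher being *C8g*, at means of 1.12 CPM in treated FL/FL and 0.751 CPM in treated WT/FL cells. The classical and lectin group also held genes at low counts, such as *C4a* at 0.418 and 0.551 CPM in the same order. The 5 receptor genes were *Itgb2*, *Calr*, *C1qbp*, *Itgam* and *Itgax*. The gene that was higher on all of days 2 to 4 was *C1ra*, which encodes the protease C1r and was chosen for mention after its values were seen. It was at 48.6 and 45.1 CPM in treated FL/FL and 29.9 and 27.9 CPM in treated WT/FL cells on day 4 (log2 fold change 0.70 ± 0.10 SE, adjusted p = 5.25e-06, edgeR quasi-likelihood test).

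*C1s1* encodes C1s, the protease that works beside C1r. It went the other way from *C1ra*, at 0.941 and 0.787 CPM in treated FL/FL cells on day 4 against 3.26 and 2.53 CPM in treated WT/FL cells, 3.84 and 2.73 CPM in untreated FL/FL cells and 3.44 and 2.45 CPM in untreated WT/FL cells. The difference after 4-OHT was -1.74 ± 0.32 SE on the log2 scale on day 4 (adjusted p = 0.00011, edgeR quasi-likelihood test), on counts of 26 to 193 per library, and -0.86 on day 3 (adjusted p = 0.0474). Reads of *C1ra* and *C1s1* may be split with their close copies, *C1rb* and *C1s2*, which held 0 to 14 and 1 to 48 counts per library, and both values are uncertain to that extent.

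*Itgax* encodes the alpha chain of complement receptor CR4 and is also a marker of dendritic cells. On day 2 it was at 3.74 and 2.94 CPM in treated FL/FL cells and at 2.87 and 4.00 CPM in treated WT/FL cells, and the pairs overlapped. On day 3 it was at 0.965 and 0.958 CPM in treated FL/FL cells against 2.87 and 2.77 CPM in treated WT/FL cells, 4.13 and 2.86 CPM in untreated FL/FL cells and 3.42 and 4.31 CPM in untreated WT/FL cells. On day 4 it was at 0.581 and 0.908 CPM in treated FL/FL cells against 3.54 and 3.70 CPM in treated WT/FL cells, 4.47 and 5.37 CPM in untreated FL/FL cells and 5.25 and 4.11 CPM in untreated WT/FL cells. The treated FL/FL libraries were below the other 6 on both days. The genotype difference after 4-OHT was -1.55 ± 0.25 SE on the log2 scale on day 3 (adjusted p = 4.26e-05) and -2.29 ± 0.26 on day 4 (adjusted p = 1.02e-07), by edgeR's quasi-likelihood test, and the interaction on day 4 was -2.35 ± 0.34 (adjusted p = 1.08e-05).

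**Figure D4:**
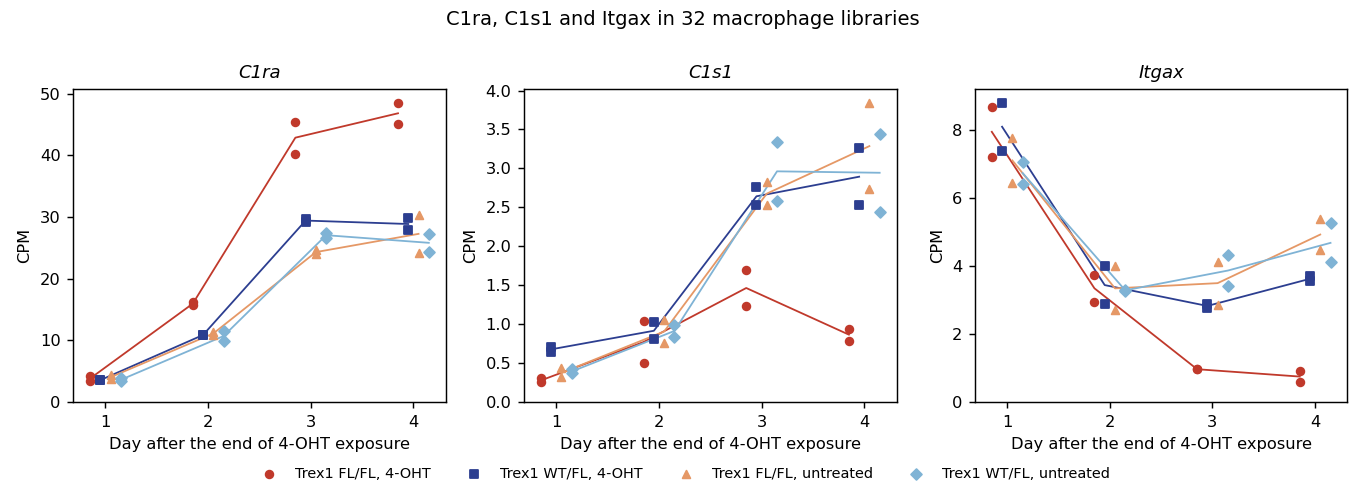
CPM of *C1ra*, *C1s1* and *Itgax* on days 1 to 4 in the 32 libraries; points are libraries and lines join the means of 2 libraries. In treated FL/FL cells *C1ra* runs above the other arms from day 2, whereas *Itgax* lies at 0.581 and 0.908 CPM on day 4 while all other libraries of that day lie at or above 3.54 CPM.

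The genes most like each member were sought by Pearson's correlation of log2 CPM over the 32 libraries, which share the same days, genotypes and treatments and are given as a description. *C1qb* and *C1qc* were most like each other (r = 0.999), followed for both by *Nrros* and *Cd83* (r of 0.994 to 0.996), and *C1qa* was most like *C1qc* (0.989) and *C1qb* (0.987). *Cfb* was most like *Npc2* (0.989), *Snw1* (0.984) and *Ccl5* (0.984), the last a chemokine whose own genotype difference after 4-OHT on day 4 was 2.67 on the log2 scale. *C4b* was most like *Grn*, *Irf2* and *Trim25* (0.986 each), *C3ar1* like *Trim25* (0.989), *Uvrag* (0.987) and *Pgap2* (0.986), and *C3* like *Acp2* (0.991), *H2-D1* (0.991) and *Il2rg* (0.989). *Cfp* was most like *Tmem51* (0.993), *Tmem86a* (0.992) and *Arap1* (0.991). *C5ar1* had looser neighbours, the mitochondrial genes *mt-Nd1* (0.888) and *mt-Nd2* (0.883), and *Pam* (0.880), and its r with the other 8 members was negative, from -0.65 with *Cfb* to -0.39 with *C1qa*.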

How the data were processed

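Salmon was run by the authors on GRCm39, and gene-level estimated counts, made with tximport and stored as whole numbers, were deposited; the annotation release was not given in the sources used here. Gene symbols, coordinates and transcript lengths came from the GENCODE annotation of GRCm39, and rows without a symbol held 0.32% of counts. The counts were fitted with edgeR 4.0.16 (R 4.3.3), using filterByExpr with a minimum count of 10, TMM factors (0.894 to 1.12) and glmQLFit (robust) with 16 group means, leaving 16 residual degrees of freedom. Contrasts were tested with glmQLFTest and adjusted by Benjamini-Hochberg over 15257 genes. Standard errors are the fold change over the root of F. Libraries of a group differed by 9.02 to 47.4 times the sampling noise (chi-square per degree of freedom), so none was counted as a duplicate. With 2 libraries a group, an exact permutation test cannot go below 0.33 (two-sided). Levels per length used the Ensembl canonical transcript. DESeq2 1.42.0, other factors, filters and left-out libraries were alternatives. The rule for naming other complement genes was to pass with an absolute log2 fold change above 1, which *C1s1* and *Itgax* met. *C4a*, *C1rb* and *C1s2* were named as close copies. *C1ra*, *Calr*, *Cd93*, *Itgam*, *Itgb2*, *C1qbp*, *C8g*, *Cd59a* and *C2* did not meet the rule and were named in addition. Up to 3 of the most similar genes were named for each member. The fit was tested on simulated data. The 9 genes and all lists were chosen with earlier results of these data known. Some genes of these lists are not reported here.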

Additional observations from a re-analysis of the deposited data

Results flagged for a closer look

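In 8 cases the effect of a contrast differed between genotypes or between days, by edgeR's quasi-likelihood test of the difference itself with an adjusted p below 0.01. The change with 4-OHT differed between FL/FL and WT/FL cells on day 2 for *C3* (0.77 ± 0.16 SE on the log2 scale), *C3ar1* (0.52 ± 0.08) and *Cfb* (2.06 ± 0.44). It differed on day 4 for *C4b* (2.44 ± 0.54), *Cfb* (1.78 ± 0.40) and *C5ar1* (-0.54 ± 0.10). For the interaction, 4.04% of all genes passed on day 2 and 10.4% on day 4. The calls of *C3* and *Cfb* on day 2, and of *C4b* and *Cfb* on day 4, depended on single libraries, as given above. The genotype difference after 4-OHT changed from day 1 to day 2 for *C3ar1* (0.53 ± 0.08) and from day 2 to day 3 for *C5ar1* (-0.51 ± 0.10). For these steps 3.02% and 0.905% of all genes passed.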

How the results depend on the processing

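No paired analysis was possible because neither the labels nor the column names give a replicate number, animal or batch. The share of all genes that passed was not counted in the alternative fits or at an adjusted p below 0.05. The counts for the 9 genes in these settings therefore have no such share beside them. The number of the 9 genes that passed moved most when no filter on low counts was used, and the cause was not tested. It was then 2 (day 1) and 8 (day 4) for 4-OHT in FL/FL cells, 2 (day 3) and 3 (day 4) for 4-OHT in WT/FL cells, 5 for the genotype difference after 4-OHT on day 3, 1 between untreated genotypes on day 1 and on day 4, and 1 (day 1) and 3 (day 3) for the interaction. With the added fold threshold it was 1, 2 and 2 for 4-OHT in FL/FL cells on days 2 to 4, 1, 0 and 2 for the genotype difference, and 1 for the interaction on day 2. At an adjusted p below 0.05 it was 1 for 4-OHT in WT/FL cells on day 4 and 2 for the interaction on day 3. With DESeq2 it was 1 for 4-OHT in WT/FL cells on day 4, and 1 (day 3) and 5 (day 4) for the interaction. Without 1 library at a time, with the lone sample of an arm assumed to vary like the others, it ranged from 0 to 2 for the genotype difference on day 3, with 0 reached without treated WT/FL library 1 and 1 without either treated FL/FL library, from 2 to 4 on day 2 and from 4 to 5 on day 4. It ranged from 1 to 2 for the interaction on day 2, from 0 to 1 on day 3 and from 1 to 2 on day 4, where 1 was reached without treated or untreated FL/FL library 1. RLE and upper-quartile factors moved no such count by more than 1.5 times. Of 108 single values of the 9 genes, 45 were below their standard error, and 63 were followed. Under the alternatives other than left-out libraries, 274 repeats kept direction and side of the threshold, 26 came to pass, 3 ceased to pass and 0 changed direction. Among left-out libraries, 275 kept both, 2 came to pass, 42 ceased to pass and 1 changed direction, the 4-OHT difference of *C5ar1* in FL/FL cells on day 1, which was -0.10 with all libraries, ranged from -0.21 to 0.03 and was 0.0309 without untreated FL/FL library 2. Depth limits *C4b* on day 1, at 5 to 12 counts per library.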

Other observations

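Of the complement regulators, *Cd59a*, which encodes an inhibitor of the membrane attack complex, differed between the 2 libraries of a group in the same sense throughout: the library numbered 1 was higher in 16 of 16 groups, by a ratio of 1.08 to 2.47, with 11.3 to 17.0 CPM against 5.93 to 11.8 CPM. *C1qa* and *C1qc* were higher in the library numbered 2 in 15 of 16 groups. The numbers follow the order of the samples and carry no label of their own, and this pattern was noticed after the values were seen. Among genes left at low counts, *C2*, the protease partner of C4, was at 1.32 ± 0.06 CPM (SD, n = 2) in treated FL/FL and 0.280 ± 0.273 CPM in treated WT/FL cells on day 4, a log2 difference of 2.19 ± 0.78 SE that did not pass (adjusted p = 0.0333, edgeR quasi-likelihood test).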
